A study of Mus musculus with 12 samples.

Results

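The genes described here are the transcripts of AMP-activated protein kinase (AMPK), of its upstream kinases and of its substrate acetyl-CoA carboxylase (ACC) in mouse liver. Members were the genes of the deposited table whose symbol equals 1 of 10 names: the subunit genes Prkaa1, Prkaa2, Prkab1, Prkab2, Prkag1 and Prkag2, the kinase genes Stk11 and Camkk2, and the carboxylase genes Acaca and Acacb. All 10 were found among 54532 genes, and all 10 passed the filter on low values (0.5 FPKM or more on average, FPKM being sequenced fragments relative to gene length and library size), as did 13447 genes in all. Livers of mice injected with an adeno-associated virus (AAV) that carries Rspo2 gave 6 libraries, and livers of mice injected with a control AAV that carries Gfp gave 6. Both groups are labelled Apoe knockout, a genotype that makes mice prone to high blood cholesterol, and no library is labelled with normal Apoe. Apoe was nonetheless listed at 43.1 to 101 FPKM in Rspo2-AAV livers and 38.8 to 149 FPKM in controls. The deleted part of the gene is not given in the sources used here, so these values do not check that label. The labels give neither the age of the mice nor the time after injection, and they do not tie each library to its own mouse, so a p-value speaks for the spread among these libraries. Rspo2 encodes R-spondin 2, a secreted protein that strengthens Wnt signalling, and by its title the series asks about liver fat storage and the AMPK-ACC axis.

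AMPK is an enzyme of 3 subunits that senses the energy state of the cell. An alpha subunit carries the kinase, a beta subunit holds the complex together and binds glycogen, and a gamma subunit binds AMP, ADP or ATP. LKB1, encoded by Stk11, phosphorylates the alpha subunit when AMP is high, and CAMKK2 does so when calcium rises. Active AMPK phosphorylates and so inhibits both carboxylases. ACC1, encoded by Acaca, makes the malonyl-CoA in the cytosol from which the liver builds fatty acids. ACC2, encoded by Acacb, sits at the outer mitochondrial membrane, where its malonyl-CoA restrains the import of fatty acids for oxidation. These steps are set by phosphorylation, which RNA levels do not measure.

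The regions just upstream of the RefSeq start of the carboxylase genes are shown because these genes had the highest ratios of highest to lowest value among Rspo2-AAV livers. RefSeq (GRCm38.p6) gives 12 windows for the 10 members, each of 250 bases before and 50 bases after a start. The stretches below are the 250 upstream bases on the + strand, 5′ to 3′, with the CCAAT box in capitals. Acacb lies at chr5:114146535-114250761 on the + strand, and its stretch, chr5:114165268-114165517, ends just before the start of transcript Acacb-201, which lies 18983 bases inside the deposited gene, and overlaps 1 annotated exon. Acaca lies at chr11:84129672-84401651 on the + strand, and its stretch, chr11:84195188-84195437, ends just before the start of Acaca-201, which lies 65766 bases inside the gene, and overlaps 0 annotated exons.
Acacb: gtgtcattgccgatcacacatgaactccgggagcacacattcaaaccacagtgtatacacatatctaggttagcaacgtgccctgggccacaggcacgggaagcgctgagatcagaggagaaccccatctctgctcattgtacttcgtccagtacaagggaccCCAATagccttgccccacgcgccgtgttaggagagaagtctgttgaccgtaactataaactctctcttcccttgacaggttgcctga
Acaca: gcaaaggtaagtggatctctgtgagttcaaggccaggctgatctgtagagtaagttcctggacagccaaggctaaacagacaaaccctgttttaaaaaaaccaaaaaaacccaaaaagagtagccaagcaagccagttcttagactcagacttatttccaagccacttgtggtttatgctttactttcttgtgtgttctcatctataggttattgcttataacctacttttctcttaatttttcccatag
The capitals in the Acacb stretch begin 87 bases upstream of the start, and the Acaca stretch has none. Searched on both strands of the 300-base windows, CCAAT was in 6 of the 12 member windows (of Acacb, Camkk2, Prkag1, Stk11 and Prkag2) and in 37.41% of 32851 RefSeq windows. The Prkag2 windows at chr5:25100593-25100892 and chr5:24995704-24996003 held it, and that at chr5:24908460-24908759 did not. The sterol response element TCACNCCAC (1.242% of all windows), the E-box CACGTG (7.15%) and the TCF/LEF motif CTTTGAT (3.729%) were in 0 member windows, so no member window held more than 1 kind of motif. Both carboxylase genes have other annotated starts, 3 distinct coding starts for Acacb and 6 for Acaca, and values per gene do not say which start was used.

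The libraries held 14295644 to 22195576 reads recovered from the FPKM values. Rspo2 was listed at 49.9 to 573 FPKM in Rspo2-AAV livers, with the lowest values in numbers 2 and 1, and had 0 reads in all 6 controls. Axin2, a Wnt target, averaged 7.41 ± 1.55 FPKM in Rspo2-AAV livers and 2.53 ± 0.889 FPKM in controls (SD, n = 6 each), with no overlap. The 5 hepatocyte markers in the table (Tf of the 6 listed had no match) summed to 18052 to 40512 FPKM in Rspo2-AAV livers and 22421 to 45993 FPKM in controls.

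Several libraries stand apart, and calls of members that move without them are given both ways. Libraries numbered 1 to 3 in both groups differ from numbers 4 to 7: Scd1, a fatty acid desaturase, had 2457 to 3430 FPKM in Rspo2-AAV livers and 2829 to 3662 FPKM in controls of numbers 4 to 7, against 340 to 541 FPKM and 331 to 479 FPKM in numbers 1 to 3. No label calls these numbers a batch. Xist, an RNA of female cells, had 28.0 and 5.57 FPKM in Rspo2-AAV livers 1 and 2, 42.0 FPKM in control 3, and under 0.02 FPKM in the other 9 libraries. Rspo2-AAV livers 4 and 5 had 5.80 and 0.521% of their reads on pancreatic acinar markers. Rspo2-AAV livers 6 and 7 had 0.0603 and 0.00634%, and the other libraries had at most 0.00340%. In Rspo2-AAV 2 and control 1 the median of 1762 short coding genes (under 2000 bases) exceeded that of 4497 long ones (over 5000 bases) by 0.53 and 0.54 log2 units relative to each gene's mean, while the other 10 libraries ran from -0.28 to 0.01. That split by length was computed after the data had been seen.

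Over all 12 libraries, no AMPK subunit, upstream kinase or ACC gene passed the test. limma called 0 of the 10 at an adjusted p under 0.05, beside 5.20% of all genes tested (2.55% higher, 2.65% lower). At an unadjusted p under 0.05 there were 2 (Acacb and Prkaa2), beside 21.5% of all genes. limma-voom on the recovered reads called 0 of the 10 and 4.97% of all genes, with 3 members (Camkk2 in addition) and 21.3% of all genes at an unadjusted p under 0.05. All 10 members overlapped between the groups, while 3.24% of all genes did not. The median log2 change of the 10 was 0.10, and that of all genes tested was 0.00. Changes below are log2 differences of FPKM + 0.5, which understate changes of genes with low values.

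**Figure D1:**
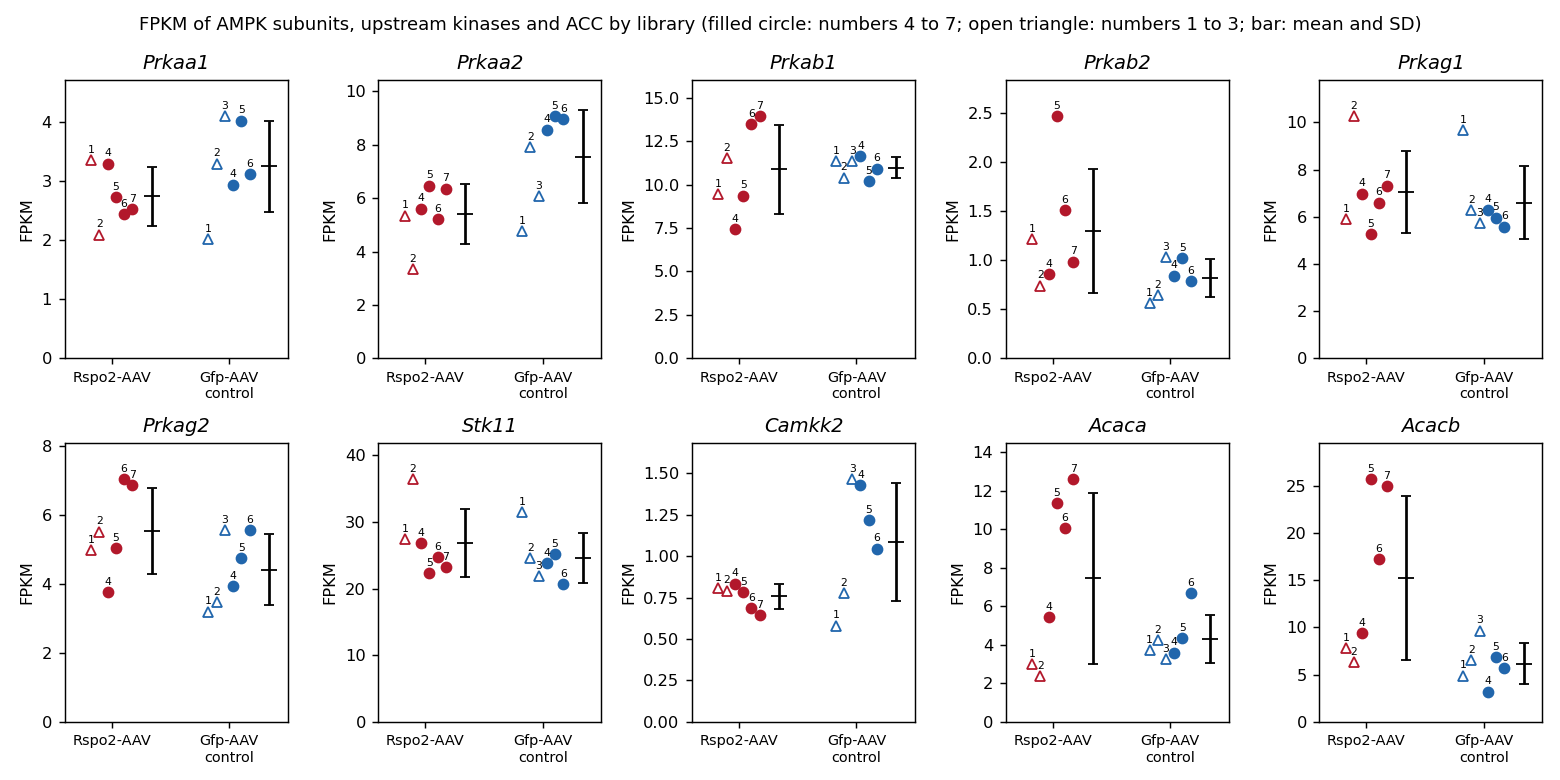
FPKM (y axis) of each of the 10 genes in every library, Rspo2-AAV left and Gfp-AAV control right; filled circles are numbers 4 to 7, open triangles numbers 1 to 3, small digits the library number, and bars the mean and SD of 6 libraries. For Acacb and Acaca, Rspo2-AAV livers 5, 6 and 7 lie above all 6 controls, and the groups overlap for every gene.

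In FPKM, which is per length, the order of levels had Stk11 on top in both groups. In Rspo2-AAV livers Stk11 was followed by Acacb, Prkab1, Acaca, Prkag1, Prkag2, Prkaa2, Prkaa1, Prkab2 and Camkk2. Mean ± SD intervals of neighbours in that order overlapped except between Prkaa2 and Prkaa1 and between Prkaa1 and Prkab2. In controls the order was Stk11, Prkab1, Prkaa2, Prkag1, Acacb, Prkag2, Acaca, Prkaa1, Camkk2 and Prkab2, with gaps between Stk11 and Prkab1, between Prkab1 and Prkaa2 and between Prkaa1 and Camkk2. Acacb thus held rank 2 in Rspo2-AAV livers and rank 5 in controls.

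Among the catalytic subunits, Prkaa2 was more abundant than Prkaa1 in all 12 libraries, and its difference between the groups was called in some sets of libraries but not over all 12. Prkaa2 (alpha 2, chr4:105029874-105109890, - strand) ranged from 3.36 FPKM through a median of 5.48 to 6.47 FPKM in Rspo2-AAV livers, and from 4.78 through 8.24 to 9.07 FPKM in controls. The lowest Rspo2-AAV liver was number 2 and the lowest control was number 1, the pair in which short genes are high, and controls 2, 4, 5 and 6 lay above every Rspo2-AAV liver. The means were 5.39 ± 1.12 FPKM in Rspo2-AAV livers and 7.56 ± 1.75 FPKM in controls (SD, n = 6 each), a log2 change of -0.44 ± 0.18 (SE; 95% interval -0.83 to -0.06; adjusted p = 0.169 by limma). Without Rspo2-AAV 2 and control 1, an alternative added after the data had been seen, the log2 change was -0.44 ± 0.11 and Prkaa2 was called by limma (adjusted p = 0.0398), where 8.73% of all genes were called.

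Within numbers 4 to 7, Prkaa2 fell in Rspo2-AAV livers. The values were 5.61, 6.47, 5.22 and 6.35 FPKM in Rspo2-AAV livers 4, 5, 6 and 7, against 8.57, 9.07 and 8.95 FPKM in controls 4, 5 and 6. The groups did not overlap there, though how many of all genes do not overlap in this set was not counted. The log2 change was -0.55 ± 0.09 (adjusted p = 0.0123 by limma), where 13.3% of all genes were called (6.34% higher, 6.92% lower). Within numbers 1 to 3 the values were 5.35 and 3.36 FPKM in Rspo2-AAV livers 1 and 2, against 4.78, 7.91 and 6.07 FPKM in controls 1, 2 and 3. The groups overlapped there, and the log2 change of -0.48 ± 0.30 was not called (adjusted p = 0.773 by limma), where 0.00% of all genes were called. The effect in numbers 4 to 7 minus that in numbers 1 to 3 was -0.07 log2 units (95% interval -0.68 to 0.54; adjusted p = 0.957 by limma), and with a term for number set in the fit Prkaa2 was called at -0.52 ± 0.13 (adjusted p = 0.0379 by limma, where 6.48% of all genes were called). Without the 3 libraries with Xist the log2 change was -0.35 ± 0.18 and was not called (adjusted p = 0.227 by limma).

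Prkaa1 (alpha 1, chr15:5143861-5181899, + strand) ranged from 2.10 through 2.63 to 3.35 FPKM in Rspo2-AAV livers and from 2.03 through 3.21 to 4.10 FPKM in controls. Its means were 2.74 ± 0.496 FPKM in Rspo2-AAV livers and 3.25 ± 0.767 FPKM in controls (SD, n = 6 each), a log2 change of -0.20 ± 0.15 (95% interval -0.53 to 0.13; adjusted p = 0.496 by limma), and of -0.31 without control 1. The lowest value of Prkaa1, as of Prkaa2, was that of Rspo2-AAV 2 among Rspo2-AAV livers and that of control 1 among controls. The sum of both alpha genes averaged 8.14 ± 1.41 FPKM in Rspo2-AAV livers and 10.8 ± 2.19 FPKM in controls.

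Of the beta subunit genes, Prkab1 was the more abundant in all 12 libraries, and neither was called between the groups. Prkab1 (beta 1, chr5:116013586-116024508, - strand) averaged 10.9 ± 2.55 FPKM in Rspo2-AAV livers and 11.0 ± 0.578 FPKM in controls (SD, n = 6 each), a log2 change of -0.04 ± 0.14 (95% interval -0.34 to 0.25; adjusted p = 0.895 by limma). Among Rspo2-AAV livers its lowest value was 7.45 FPKM (number 4) and its highest 13.9 FPKM (number 7), while controls spanned 10.2 to 11.7 FPKM. The lowest of these is the library with the most acinar reads, and without it the log2 change was 0.05, so the sign of the Prkab1 difference rests on that library.

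Prkab2 (beta 2, chr3:97658193-97673812, + strand) was far lower, from 0.741 through 1.10 to 2.46 FPKM in Rspo2-AAV livers and from 0.562 through 0.815 to 1.03 FPKM in controls. Rspo2-AAV 5 was the highest library and the groups overlapped. These values rest on 58 to 191 reads per Rspo2-AAV library and 38 to 96 reads per control library. The log2 change was 0.40 ± 0.20 (95% interval -0.03 to 0.83; adjusted p = 0.272 by limma), and 0.24 without Rspo2-AAV 5. Without the 3 libraries with Xist it was 0.56 (95% interval 0.06 to 1.07; adjusted p = 0.139 by limma).

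The gamma subunit genes were close to each other in level. Prkag1 (gamma 1, chr15:98812797-98831521, - strand) averaged 7.05 ± 1.74 FPKM in Rspo2-AAV livers and 6.59 ± 1.54 FPKM in controls (SD, n = 6 each), a log2 change of 0.09 ± 0.16 (95% interval -0.26 to 0.43; adjusted p = 0.810 by limma). Its highest values were 10.3 FPKM in Rspo2-AAV 2 and 9.68 FPKM in control 1, while the other 10 libraries lay between 5.26 and 7.32 FPKM. Prkag2 (gamma 2, chr5:24862744-25100642, - strand) ranged from 3.76 through 5.29 to 7.04 FPKM in Rspo2-AAV livers and from 3.20 through 4.35 to 5.58 FPKM in controls, and its log2 change was 0.30 ± 0.17 (95% interval -0.07 to 0.66; adjusted p = 0.336 by limma).

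The upstream kinases were the highest and one of the lowest members. Stk11 (LKB1, chr10:80115803-80130682, + strand) averaged 26.8 ± 5.09 FPKM in Rspo2-AAV livers and 24.6 ± 3.76 FPKM in controls (SD, n = 6 each), a log2 change of 0.12 ± 0.13 (95% interval -0.17 to 0.41; adjusted p = 0.667 by limma). It was 0.027 without Rspo2-AAV 2 and 0.19 without control 1. As for Prkag1, its highest values were in Rspo2-AAV 2 (36.4 FPKM) and control 1 (31.5 FPKM), and the other 10 libraries lay between 20.7 and 27.5 FPKM. So Stk11 and Prkag1 were highest, and Prkaa1 and Prkaa2 lowest, in the library of each group where short genes were high, and the part of that property in these values was not tested.

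Camkk2 (chr5:122731170-122779409, - strand) was lower in Rspo2-AAV livers within numbers 4 to 7. Over all libraries it ranged from 0.643 through 0.788 to 0.834 FPKM in Rspo2-AAV livers and from 0.580 through 1.13 to 1.46 FPKM in controls, on 84 to 302 reads per library. The Rspo2-AAV livers lay close together, and controls 1 and 2 were the only controls within or below their range. The log2 change was -0.30 ± 0.15 (95% interval -0.63 to 0.03; adjusted p = 0.272 by limma). In numbers 4 to 7 the values were 0.834, 0.783, 0.685 and 0.643 FPKM in Rspo2-AAV livers 4, 5, 6 and 7, against 1.43, 1.22 and 1.05 FPKM in controls 4, 5 and 6. These groups did not overlap, though how many of all genes do not overlap in this set was not counted. Camkk2 was called there at -0.48 ± 0.13 (adjusted p = 0.0474 by limma), where 13.3% of all genes were called (6.92% lower). The difference of this effect from that in numbers 1 to 3 was -0.38 log2 units (95% interval -1.05 to 0.29; adjusted p = 0.682 by limma).

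Acacb had the largest difference between the groups among the 10 genes, and it rested on the Rspo2-AAV livers numbered 5, 6 and 7. Acacb ranged from 6.29 through 13.3 to 25.7 FPKM in Rspo2-AAV livers and from 3.19 through 6.12 to 9.65 FPKM in controls. Rspo2-AAV livers 5, 6 and 7 had 25.7, 17.3 and 25.0 FPKM, above every control, while numbers 1, 2 and 4 had 7.80, 6.29 and 9.39 FPKM, within the range of the controls. The means were 15.2 ± 8.68 FPKM in Rspo2-AAV livers and 6.14 ± 2.17 FPKM in controls (SD, n = 6 each), a log2 change of 1.11 ± 0.36 (95% interval 0.34 to 1.88; adjusted p = 0.0932 by limma). Without Rspo2-AAV 2 the log2 change was 1.31 and Acacb was called (adjusted p = 0.0390 by limma, where 6.72% of all genes were called).

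Acaca followed the same libraries. It ranged from 2.36 through 7.75 to 12.6 FPKM in Rspo2-AAV livers and from 3.27 through 3.97 to 6.67 FPKM in controls. Rspo2-AAV livers 5, 6 and 7 had 11.3, 10.1 and 12.6 FPKM, above every control, number 4 had 5.43 FPKM, and numbers 1 and 2 had 2.97 and 2.36 FPKM, below every control. The means were 7.46 ± 4.44 FPKM in Rspo2-AAV livers and 4.30 ± 1.23 FPKM in controls (SD, n = 6 each), a log2 change of 0.53 ± 0.36 (95% interval -0.26 to 1.32; adjusted p = 0.437 by limma). Without Rspo2-AAV 7 it was 0.34, and without Rspo2-AAV 4 and 5 the log2 changes were 0.38 for Acaca and 0.99 for Acacb. The sum of both ACC genes averaged 22.7 ± 13.0 FPKM in Rspo2-AAV livers and 10.4 ± 2.34 FPKM in controls.

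Split by library number, Acacb was called in numbers 4 to 7, and Acaca was not. Acacb rose there to 19.3 ± 7.64 FPKM in Rspo2-AAV livers (n = 4), against 5.26 ± 1.88 FPKM in controls (n = 3). Its log2 change was 1.74 ± 0.38 (adjusted p = 0.0268 by limma), where 13.3% of all genes were called (6.34% higher). In numbers 1 to 3 Acacb had 7.05 ± 1.07 FPKM in Rspo2-AAV livers (n = 2) and 7.02 ± 2.42 FPKM in controls (n = 3), a log2 change of 0.05 ± 0.32. Acaca had 9.86 ± 3.12 FPKM in Rspo2-AAV livers and 4.86 ± 1.61 FPKM in controls of numbers 4 to 7, a log2 change of 0.93 ± 0.30 that was not called (adjusted p = 0.0831 by limma), and Rspo2-AAV 4 lay within the range of those controls. In numbers 1 to 3 its log2 change had the other sign, -0.42 ± 0.21, from 2.66 ± 0.436 FPKM in Rspo2-AAV livers and 3.74 ± 0.483 FPKM in controls (adjusted p = 0.744 by limma). In numbers 1 to 3, limma called 0 of all genes tested (0.00%), with 955 at an unadjusted p under 0.05.

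The difference between these effects was tested as an interaction of vector and number set. It was 1.70 ± 0.56 log2 units for Acacb (95% interval 0.47 to 2.92) and 1.35 ± 0.42 for Acaca (95% interval 0.43 to 2.27), and neither was called (adjusted p = 0.302 and 0.279 by limma). limma called 0 of the 10 members in this test, beside 0.245% of all genes. At an unadjusted p under 0.05 there were 2 members, both ACC genes, beside 11.5% of all genes. Without Rspo2-AAV 4, the library with the most acinar reads, the interaction of Acaca was 1.60 ± 0.30 and was called (adjusted p = 0.0465 by limma, where 0.863% of all genes were called). Within Rspo2-AAV livers, numbers 4 to 7 exceeded numbers 1 to 3 by 1.66 ± 0.32 log2 units for Acaca and 1.30 ± 0.40 for Acacb (adjusted p = 0.0793 and 0.169 by limma), while within controls these differences were 0.30 ± 0.23 and -0.40 ± 0.33.

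Rspo2-AAV livers 1 and 2 also have the lowest Rspo2 levels of their group, and both hold Xist. They also have the lowest shares of reads on pancreatic acinar markers in that group, 0.000996 and 0.00161%. Rspo2-AAV livers 4 to 7 had 0.00634 to 5.80%. The level of Rspo2, the Xist reads, the acinar reads and the number set therefore cannot be told apart within the Rspo2-AAV group. Without the 3 libraries with Xist, Acacb was called at 1.68 ± 0.30 (adjusted p = 0.00726 by limma) and Acaca at 1.02 ± 0.24 (adjusted p = 0.0240 by limma), beside 12.8% of all genes.

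**Figure D2:**
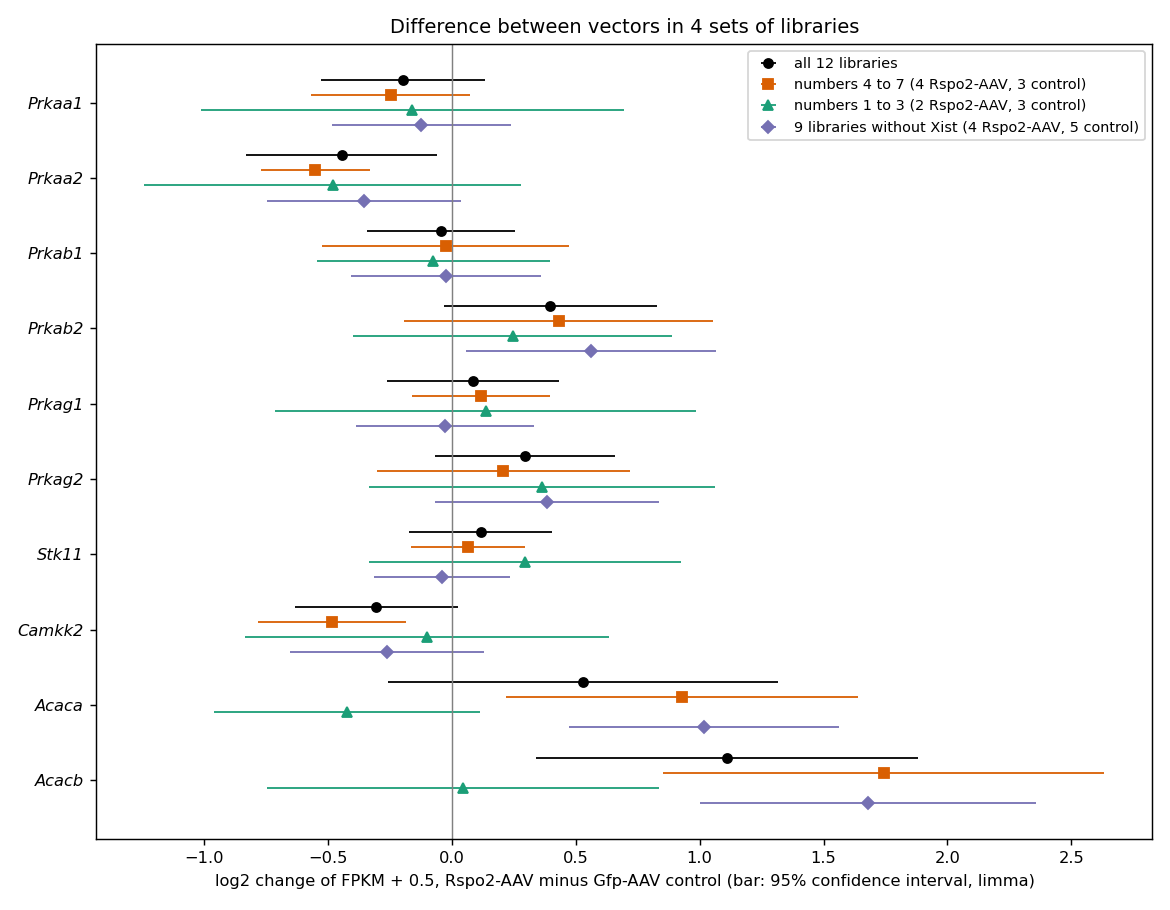
Log2 change of FPKM + 0.5, Rspo2-AAV minus Gfp-AAV control (x axis), with its 95% limma confidence interval for each gene in 4 sets of libraries. Acacb stands at 1.11 over all 12 libraries, 1.74 in numbers 4 to 7, 0.05 in numbers 1 to 3 and 1.68 without the libraries with Xist, while Prkaa2 lies at -0.44, -0.55, -0.48 and -0.35 in the same sets.

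Which isoform predominated was compared within each library, where library scaling cancels. The excess of short genes in Rspo2-AAV 2 and control 1 need not cancel between genes of unlike length. Its part in these shares and ratios was not tested. Prkaa2 made up 66.0 ± 4.55% of the summed alpha FPKM in Rspo2-AAV livers and 69.7 ± 5.37% in controls. Prkab2 made up 10.9 ± 5.33% of the beta FPKM in Rspo2-AAV livers and 6.91 ± 1.61% in controls. Prkag2 made up 44.1 ± 7.32% of the gamma FPKM in Rspo2-AAV livers and 40.4 ± 9.52% in controls. So alpha 2, beta 1 and, by a smaller margin, gamma 1 had the higher FPKM on average in both groups. These shares, and the order of levels above, depend on the deposited gene length by which reads are divided. Over all 12 libraries Prkag2 had 6566 reads on 6480 bases, and Prkag1 had 2978 reads on 2175 bases. Acacb had 20157 reads on 9632 bases, and Acaca had 19692 reads on 17074 bases.

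Acacb made up 67.9 ± 4.28% of the ACC FPKM in Rspo2-AAV livers, from 63.1 to 72.8%, and 57.8 ± 10.6% in controls, from 46.1 to 74.7%. The Rspo2-AAV livers lay within the range of the controls, whose highest share was that of control 3. The log2 ratio of Acacb to Acaca differed by 0.58 ± 0.26 (SE) between the groups, with p = 0.0606 by an exact two-sided permutation test over 924 splits, whose smallest p is 0.00216, and 0.216 adjusted over the 4 ratios. The log2 ratios of Prkab2 to Prkab1, Prkag2 to Prkag1 and Prkaa2 to Prkaa1 differed by 0.44 ± 0.25, 0.21 ± 0.28 and -0.25 ± 0.17 (exact permutation p = 0.108, 0.498 and 0.180; adjusted 0.216, 0.498 and 0.240). The first was 0.25 without Rspo2-AAV 5, and the Prkag2 to Prkag1 difference was 0.024 without control 1. Without control 3, the Acacb to Acaca difference was 0.78 with an adjusted exact permutation p of 0.00866. The 3 libraries with Xist had the 3 highest Acacb shares, 72.4 and 72.8% in Rspo2-AAV livers 1 and 2 and 74.7% in control 3, against 46.1 to 69.4% in the other 9. They also had the 3 lowest Prkaa2 shares, 61.5 and 61.5% in Rspo2-AAV livers 1 and 2 and 59.6% in control 3, against 63.0 to 74.4% in the other 9. Both orders were noticed in the data and not tested. Without these 3 libraries, the Acacb to Acaca difference was 0.66 (adjusted exact permutation p = 0.0952).

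**Figure D3:**
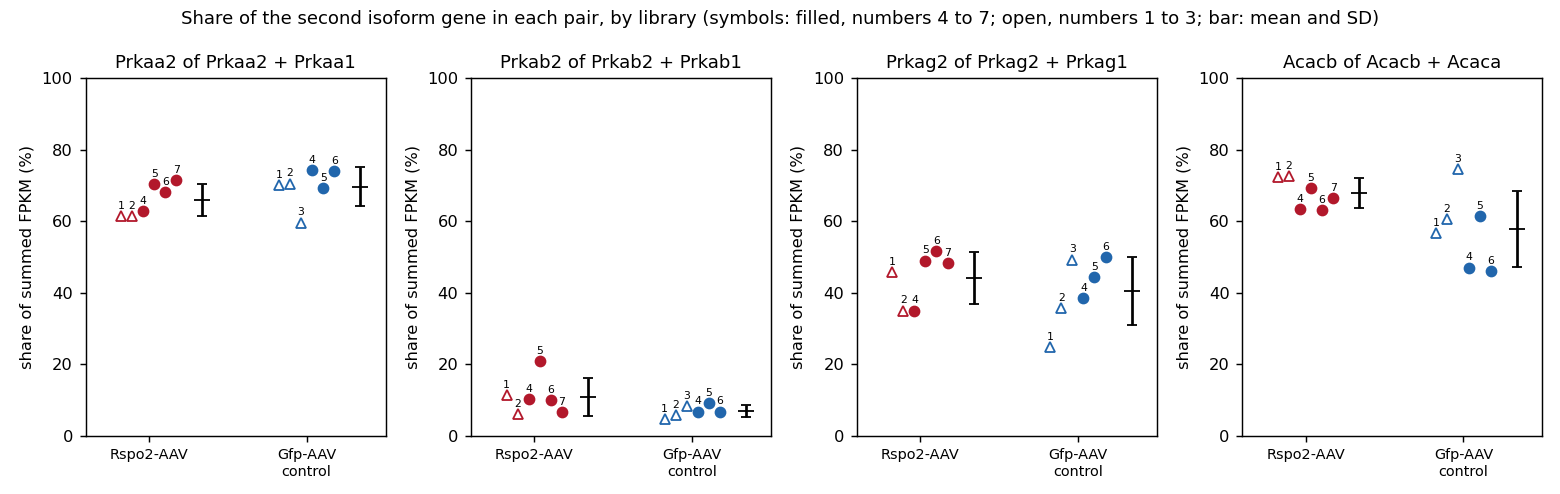
Share (%) of the summed FPKM of each pair that came from Prkaa2, Prkab2, Prkag2 or Acacb (y axis) in every library, Rspo2-AAV left and Gfp-AAV control right; filled circles are numbers 4 to 7, open triangles numbers 1 to 3, and bars the mean and SD of 6 libraries. The Acacb share lies between 63.1 and 72.8% in Rspo2-AAV livers and between 46.1 and 74.7% in controls.

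The genes around AMPK and ACC were read from the same fit in 5 lists, beside 5.20% called and a median log2 change of 0.00 over all genes tested. Of 18 AMPK substrates other than ACC, all 18 were tested, 1 rose and 2 fell, with a median log2 change of -0.07. Ulk1, the kinase that starts autophagy, had 8.70 through 11.7 to 14.0 FPKM in Rspo2-AAV livers and 16.7 through 19.9 to 25.1 FPKM in controls (lowest, median and highest). The groups did not overlap, and Ulk1 fell by 0.79 ± 0.13 on the log2 scale (adjusted p = 0.00508 by limma).

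The glycogen synthase genes moved in opposite directions. Gys2, the liver isoform, had 17.9 through 24.9 to 46.1 FPKM in Rspo2-AAV livers and 44.2 through 65.0 to 81.7 FPKM in controls, and its log2 change was -1.17 ± 0.23 (adjusted p = 0.0120 by limma). Only the highest Rspo2-AAV liver reached into the range of the controls. Gys1, the muscle isoform, had 1.09 through 1.34 to 1.86 FPKM in Rspo2-AAV livers and 0.605 through 0.724 to 0.854 FPKM in controls. Its groups did not overlap, and it rose by 0.62 ± 0.12 log2 units (adjusted p = 0.0104 by limma). Without Rspo2-AAV 4 and 5, the libraries with the most acinar reads, the log2 changes were -0.98 for Gys2 and 0.61 for Gys1. Neither was called there (adjusted p = 0.0750 and 0.0579 by limma). With TPM scaling Gys1 was at 0.76 and not called (adjusted p = 0.0682 by limma). Gys2 was called at -1.42 in numbers 4 to 7 and not called at -0.65 in numbers 1 to 3 (adjusted p = 0.00569 and 0.743 by limma). Of all genes, 13.3% were called in numbers 4 to 7 and 0.00% in numbers 1 to 3.

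Of 14 genes of malonyl-CoA metabolism and ACC partners, 13 were tested, 1 rose and 0 fell, with a median log2 change of 0.26. Acss2, which makes acetyl-CoA from acetate, had 7.83 through 48.9 to 106 FPKM in Rspo2-AAV livers and 5.16 through 7.33 to 7.60 FPKM in controls, without overlap. Its log2 change of 2.16 ± 0.55 (adjusted p = 0.0419 by limma) lost its call in 10 of the 12 fits without 1 library, with adjusted p values of up to 0.0992. It kept its call when Rspo2-AAV 1 or Rspo2-AAV 2 was left out, and was at 2.20 with TPM scaling and at 1.64 without Rspo2-AAV 4 and 5 (adjusted p = 0.0517 and 0.162 by limma). Acss2 was called at 2.99 in numbers 4 to 7 and not called at 0.39 in numbers 1 to 3 (adjusted p = 0.00158 and 0.757 by limma). In these sets 13.3 and 0.00% of all genes were called. In the interaction of vector and number set, the effect on Acss2 was larger in numbers 4 to 7 by 2.60 ± 0.39 log2 units (adjusted p = 0.0288 by limma). Without 1 library that difference ran from 2.34 to 2.78 and lost its call in 8 of 12 fits, with adjusted p values of up to 0.101 by limma, and it was called only without Rspo2-AAV 1, 4 or 5 or control 3. The difference for Gys2, -0.76 ± 0.37, was not called (adjusted p = 0.469 by limma).

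Of 12 genes of adenylate metabolism, which sets the AMP, ADP and ATP that AMPK senses, 9 were tested, 0 rose and 1 fell, with a median log2 change of 0.04. Ak4, an adenylate kinase of the mitochondrial matrix, had 2.32 through 2.92 to 5.07 FPKM in Rspo2-AAV livers and 7.92 through 14.1 to 18.4 FPKM in controls. The groups did not overlap, and the log2 change was -1.90 ± 0.22 (adjusted p = 0.00107 by limma). Ak4, Ulk1, Gys1 and Gys2 kept their calls in all 12 fits without 1 library.

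Of 18 regulators of AMPK, 15 were tested and limma called 0, with 5 at an unadjusted p under 0.05 (21.5% of all genes) and a median log2 change of -0.19. The receptors of adiponectin, the fat cell hormone that acts on liver AMPK, had the highest levels of that list. Adipor2 averaged 62.0 ± 9.82 FPKM in Rspo2-AAV livers and 90.1 ± 19.8 FPKM in controls (adjusted p = 0.114 by limma), and Adipor1 averaged 26.7 ± 0.860 FPKM in Rspo2-AAV livers and 26.9 ± 1.62 FPKM in controls (adjusted p = 0.979 by limma). Some other fits called Adipor2, among them numbers 4 to 7 (13.3% of all genes called) and the fit with a term for number set (6.48%). So did the fits without the libraries with Xist (12.8%) and without control 3 (6.79%). Of 12 AMPK-related kinases that LKB1 activates, 9 were tested and limma called 0, with 1 at an unadjusted p under 0.05 (against the same 21.5% of all genes) and a median log2 change of 0.18. Snrk, the most abundant by the mean over all 12 libraries, averaged 13.0 ± 4.38 FPKM in Rspo2-AAV livers and 11.2 ± 2.61 FPKM in controls, and Sik1 averaged 14.0 ± 9.53 FPKM in Rspo2-AAV livers and 4.38 ± 1.49 FPKM in controls (adjusted p = 0.716 and 0.0836 by limma). Sik1 was called without the libraries with Xist (12.8% of all genes called) and without Rspo2-AAV 1 (5.90%).

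**Figure D4:**
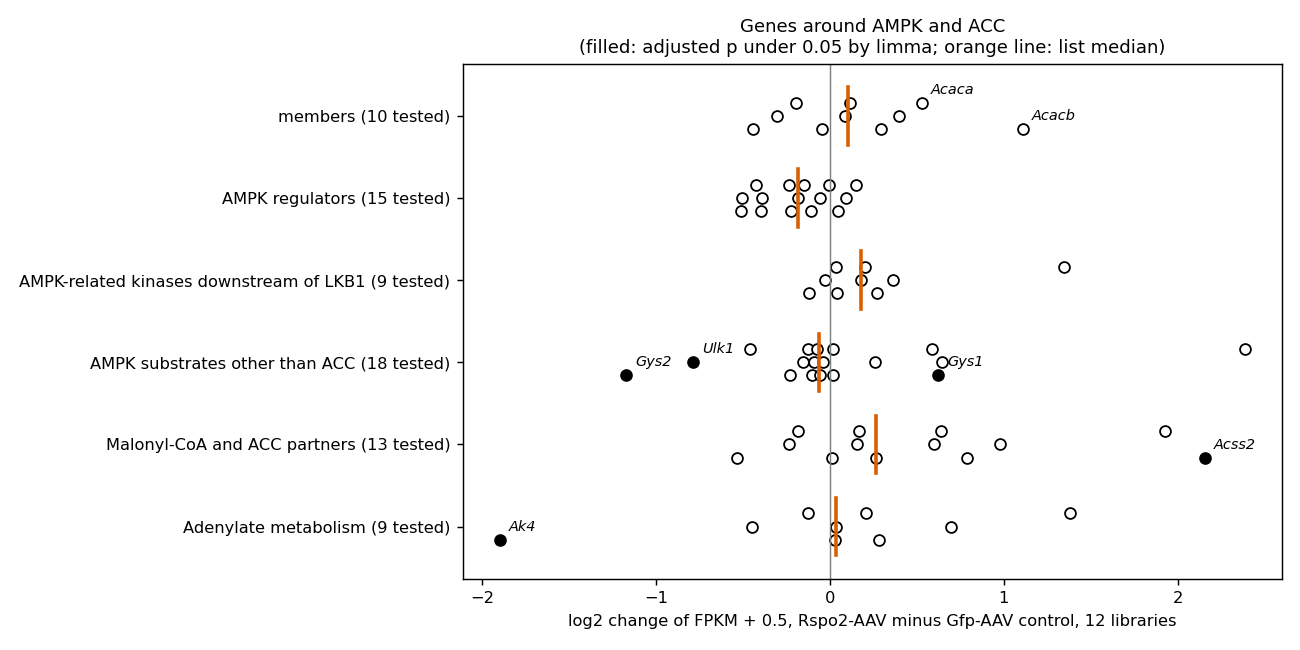
Log2 change of FPKM + 0.5 over 12 libraries, Rspo2-AAV minus Gfp-AAV control (x axis), for the 10 members and the tested genes of 5 lists (1 point a gene, filled where the adjusted p by limma is under 0.05; orange lines are list medians). The called genes are Ak4 at -1.90, Gys2 at -1.17, Ulk1 at -0.79, Gys1 at 0.62 and Acss2 at 2.16, and no member is filled.

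These are bulk values, in which fewer cells of a type and less RNA per cell cannot be told apart. Of all genes tested, limma called 2.65% lower and 2.55% higher. Stellate cell markers summed to 30.2 to 51.0 FPKM in Rspo2-AAV livers and 65.6 to 84.9 FPKM in controls, with 4 of 7 called lower by limma. Kupffer cell markers summed to 222 to 429 FPKM in Rspo2-AAV livers and 355 to 748 FPKM in controls, with 3 of 6 called lower. Erythroid markers summed to 229 to 1360 FPKM in Rspo2-AAV livers and 97.4 to 354 FPKM in controls, with 4 of 5 called higher. Endothelial markers (35.3 to 71.1 FPKM in Rspo2-AAV livers, 42.6 to 77.3 FPKM in controls) and cholangiocyte markers (24.4 to 48.9 FPKM in Rspo2-AAV livers, 17.2 to 31.0 FPKM in controls) had 0 called. Adipocyte markers summed to 2.26 to 6.69 FPKM in Rspo2-AAV livers and 3.52 to 21.8 FPKM in controls, and skeletal muscle markers to at most 0.225 FPKM in Rspo2-AAV livers and 1.64 FPKM in controls. Pancreatic acinar markers summed to 3.99 to 44845 FPKM in Rspo2-AAV livers, highest in number 4, and 4.34 to 16.0 FPKM in controls. Of these 10 markers limma called 0. The part of the other cell types in the values of the 10 members was not tested.

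The genes whose profile over the 12 libraries was most like that of the carboxylases were named by the root mean square difference of standardised log2(FPKM + 0.5), over 9876 coding genes that averaged 1 FPKM or more. Among the 5 closest to Acaca were Acly (0.157 SD units), the enzyme that makes cytosolic acetyl-CoA from citrate, Elovl6 (0.274), a fatty acid elongase, Rab11fip3 (0.319) and Aacs (0.341), an acetoacetyl-CoA synthetase. Among the 5 closest to Acacb were Traf3ip1 (0.255), Lacc1 (0.288), Tmem41b (0.351) and Slc25a15 (0.374), the mitochondrial ornithine carrier. A gene in the middle of all genes differed by 1.40 from Acaca and by 1.41 from Acacb. Acacb was 269th in likeness to Acaca, at 0.637.

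Closest to Prkaa2 were Lmbrd2 (0.225), Twsg1 (0.258), Kidins220 (0.269), Mia2 (0.305) and Ipo8 (0.307). Prkaa1 was 1143rd, at 0.875, against a middle value of 1.41. The most distant of the other members were Stk11, at 1.88, and Prkag1, at 1.86, the genes that were highest where Prkaa2 was lowest. These likenesses describe 12 libraries that share the differences in library number, Xist and gene length given above.

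**Figure D5:**
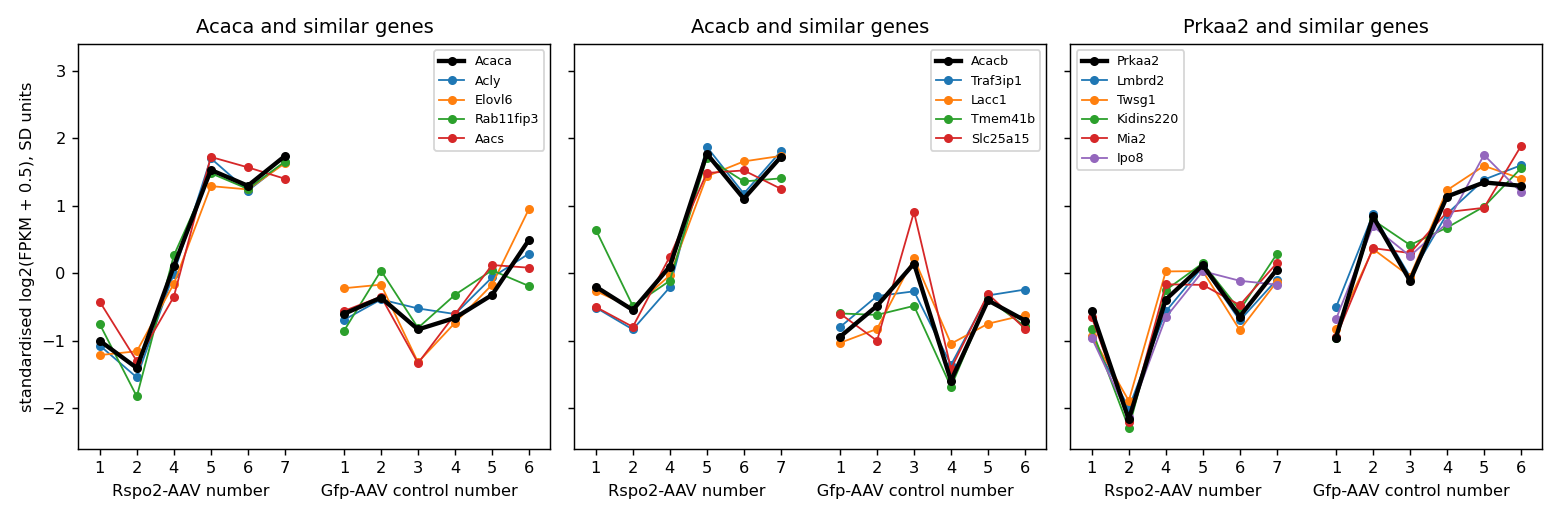
Standardised log2(FPKM + 0.5) in SD units (y axis) of Acaca, Acacb and Prkaa2 (thick black) and of the named genes most like each, in Rspo2-AAV livers 1, 2, 4, 5, 6 and 7 (left) and controls 1 to 6 (right); lines only connect libraries. Acaca and Acacb peak in Rspo2-AAV livers 5, 6 and 7, and Prkaa2 is lowest in Rspo2-AAV liver 2.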

How the data were processed

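Liver RNA of 12 samples was purified on poly-T beads and sequenced; samples had RNA integrity numbers above 8, per the labels' protocols. The authors deposited FPKM per gene, beside symbol, position and length. The build was GRCm38 (mm10) and the tools named are featureCounts 1.5.0-p3, HISAT2 2.0.5 and DESeq2 1.20.0, per the submitters' processing notes; strand use in counting is not given in the sources used here. Whole reads were recovered from FPKM and gene length (100% of positive values within 0.01 reads). The deposited FPKM were already scaled by median-of-ratios size factors, so TPM scaling was the alternative.

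limma 3.58.1 (R 4.3.3; lmFit, eBayes with trend) was run on log2(FPKM + 0.5) for genes averaging 0.5 FPKM or more; a call is a Benjamini-Hochberg adjusted p under 0.05. The procedure was tested on simulated data with independent noise for each gene. That simulation held none of the differences between libraries given above, such as those by library number or gene length. Count models were not run, because the deposited unit is FPKM; limma-voom on recovered reads was an alternative. Log2 ratios within pairs of genes were tested by exact two-sided permutation.

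The members, the lists and the split of library numbers (1 to 3 against 4 to 7) were chosen with earlier results of these data known. The text names all members, Rspo2 and Axin2, called genes of each list (up to 5; where none, the 2 with the highest mean), genes among the 5 most like Acaca, Acacb and Prkaa2 (1 each for Acaca and Acacb is not reported here), and Xist and Scd1. Sequences are from RefSeq.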

Additional observations from a re-analysis of the deposited data

Results flagged for a closer look

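The groups examined, by vector, were the members, the called list genes, Axin2, the 4 log2 ratios, and Rspo2 in Rspo2-AAV livers. Of 41 such groups of 6 libraries, 3 had 1 library far from the other 5, where chance alone gives about 1 in 20 groups. Xist, Scd1 and the uncalled list genes were not among these groups. Stk11 had 36.4 FPKM in Rspo2-AAV 2, against 22.3 to 27.5 FPKM in the other Rspo2-AAV livers. Prkag1 had 9.68 FPKM in control 1, against 5.59 to 6.30 FPKM in the other controls. Both are the libraries in which short genes were high. Acaca had 6.67 FPKM in control 6, against 3.27 to 4.33 FPKM in the other controls. The effect of the vector on Acss2 differed between number sets: its log2 change was larger in numbers 4 to 7 than in numbers 1 to 3 by 2.60 (95% interval 1.73 to 3.46; adjusted p = 0.0288 by limma, where 0.245% of all genes were called). It was 2.70 with TPM scaling, 2.64 with a pseudocount of 0.1 and 2.58 without Rspo2-AAV 2 and control 1, and was called in none of these (adjusted p = 0.0612, 0.0818 and 0.198 by limma), nor in 8 of 12 fits without 1 library. The labels do not say what sets these numbers apart.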

How the results depend on the processing

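Calls over all genes moved with the libraries used: 5.20% over all 12, 13.3% within numbers 4 to 7, 6.48% with a term for number set, 12.8% without the libraries with Xist, 8.73% without Rspo2-AAV 2 and control 1, 2.83% with TPM scaling and 1.76% without Rspo2-AAV 4 and 5. The counts below are to be read against these. The count of called members, 0 over all libraries, was 3 within numbers 4 to 7 (Acacb higher, Prkaa2 and Camkk2 lower), 1 with a term for number set (Prkaa2), 2 without the libraries with Xist (Acaca and Acacb, both higher), 1 without Rspo2-AAV 2 and control 1 (Prkaa2) and 0 to 1 leaving out each library (Acacb without Rspo2-AAV 2). The count of called list genes, 5, was 3 with TPM scaling, 17 within numbers 4 to 7, 8 with the number-set term, 20 without the libraries with Xist, 2 without Rspo2-AAV 4 and 5 (Ak4 and Ulk1), 9 without Rspo2-AAV 2 and control 1, and 4 to 10 leaving out each library, the 10 without control 3. It was 0 within numbers 1 to 3, where limma called no gene and 955 had an unadjusted p under 0.05. Members called in the interaction numbered 0 to 1 leaving out each library (Acaca without Rspo2-AAV 4). The cause of these shifts was not tested.

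Directions reversed for uncalled members only: Prkab1 (0.12 without Rspo2-AAV 4 and 5, -0.12 to 0.054 leaving out each library, 0.054 being without Rspo2-AAV 4), Prkag1 (-0.029 without the libraries with Xist, -0.022 to 0.19 leaving out each library, -0.022 being without Rspo2-AAV 2), Stk11 (-0.040 without the libraries with Xist) and Acaca (-0.42 within numbers 1 to 3). Leaving out each library moved the Acacb to Acaca log2 ratio difference between 0.45 and 0.78. Camkk2 had no value under a filter of 1 FPKM.

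The labels do not say whether same-numbered libraries of the groups are pairs. Their deviations from the group means correlated at -0.249 to 0.156. Only for number 4 was each library the closest match of the other. Whether the numbers mark pairs was not tested. With the replicate block over numbers 1, 2, 4, 5 and 6, 0 members and 5 list genes were called, beside 2.21% of all genes. Of the 5, Ak4, Gys2 and Ulk1 were also called over all 12 libraries. Acss2 (1.90, adjusted p = 0.127 by limma) and Gys1 (0.54, adjusted p = 0.0902 by limma) were not called with the block. The same 10 libraries without the block were added after the data had been seen. They gave 0 members and 10 list genes, beside 4.73% of all genes, and these 10 genes held all 5 called with the block. The blocked ratio differences were -0.43 for Prkaa2 to Prkaa1, 0.60 for Prkab2 to Prkab1, 0.26 for Prkag2 to Prkag1 and 0.79 for Acacb to Acaca, and 5 pairs cannot give an exact p under 0.0625.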

Other observations

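Of the genes in the lists that stayed under the filter on low values, Prkag3, the gamma subunit gene of skeletal muscle, averaged 0.223 FPKM in Rspo2-AAV livers and 0.0734 FPKM in controls, on at most 25 and 12 reads per library. Camkk1 averaged 0.183 FPKM in Rspo2-AAV livers and 0.218 FPKM in controls, and Cpt1b, the muscle carnitine palmitoyltransferase, 0.0875 FPKM in Rspo2-AAV livers and 0.103 FPKM in controls.

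Genes on the opposite strand overlap several members, and without known strand use their reads cannot be told apart. Over all 12 libraries Gm13784 had 45 reads beside 20157 for Acacb, Gm11437 had 470 beside 19692 for Acaca, Cbarp had 833 beside 23933 for Stk11, and Gm14508 had 191 beside 6790 for Prkab1.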
